A study of Zea mays with 18 samples.

Results

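The plastid genome transcripts described here are the features whose IDs begin with ZemaC and that held 5 or more counts in at least 3 of 18 maize endosperm libraries. Of 157 such IDs among 46430 counted features, 64 met the rule, and these held 99.7% of all plastid counts. They are 55 protein-coding genes, 4 ribosomal RNA genes, 4 transfer RNA genes and 1 pseudogene, trnT (ZemaCt129), and 52 of them carry a symbol. The rule uses the counts themselves, so that a member is detected is not a finding. Just inside it, in exactly 3 libraries, were rps3 (44 counts in all), ZemaCr113 (41), rps15 (ZemaCp093, 35) and ZemaCp103 (27). Just outside it, in exactly 2 libraries, were 9 features that included ndhC (42 counts), rpoC1 (41), rps16 (36), psaC (35) and rbcL (24).

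The libraries came from kernels of the W22 inbred line at 19 days after pollination, on field-grown, self-pollinated plants. The aleurone, the outermost layer of the endosperm, and the starchy endosperm, the storage tissue it surrounds, were separated by laser microdissection in the genotypes R1-g (the wild type of the series design), R1-sc and r1-m3. These are alleles of r1, a locus that controls anthocyanin pigment. Each of the 6 combinations of compartment and genotype has 3 biological replicates. All RNA was amplified before sequencing, in every group alike.

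Plastids carry a small genome that encodes part of the photosynthetic complexes, subunits of the plastid ribosome and RNA polymerase, a protease subunit, the NAD(P)H dehydrogenase complex and the maturase MatK, which aids the splicing of plastid introns. In cereal endosperm the plastids are largely non-green, and in the starchy endosperm they become amyloplasts, where starch is made. A large inverted repeat gives some plastid genes a second, near-identical copy, and pieces of plastid DNA also lie in the maize mitochondrial genome.

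Feature totals were 12.5 to 17.7 mega-counts (M) in 17 libraries and 20.4 M in r1-m3 aleurone replicate 3. That library was not independent of replicates 1 and 2 of its group. All 490 features with 200 or more counts in either replicate 1 or 2 and 0 in the other held counts in it, against 600 of 984 in R1-g aleurone and 719 of 1221 in R1-sc aleurone. It is therefore outside all means and tests, which leaves 8 aleurone and 9 starchy endosperm libraries. Levels are given in CPM, the counts on a feature per M after scaling with the TMM factors of the libraries, which were 1.20 to 1.68 in the aleurone and 0.683 to 0.837 in the starchy endosperm. Mitochondrial ribosomal RNA took 17.5% to 25.7% of feature counts in the aleurone and 8.31% to 11.3% in the starchy endosperm. Its part in the plastid results was not tested. No nuclear feature is paired with a symbol in the sources used here, so the labelled compartments were not checked against marker genes.

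Counts on plastid features were few in both compartments. A single gene, matK, held 61.7% to 83.0% of them in the aleurone and 20.7% to 46.6% in the starchy endosperm. These are shares of assigned counts, since 42.2% to 55.0% of the reads aligned to several places and went to no feature. How far this moved the shares of matK and of the gene classes was not tested. In R1-g starchy endosperm replicate 1 and r1-m3 starchy endosperm replicate 3, ndhA held more counts than matK (485 against 443, and 1413 against 1057). Plastid features took 0.126 ± 0.0351% of feature counts in the aleurone (SD, n = 8) and 0.0271 ± 0.00926% in the starchy endosperm (SD, n = 9). Pooled over all 18 libraries, r1-m3 aleurone replicate 3 included, matK held 68.8% of all plastid counts. The aleurone had 2.46 times the plastid CPM of the starchy endosperm with matK included. Without matK the summed level was 235 ± 38.3 CPM in the aleurone (SD, n = 8) and 233 ± 60.4 CPM in the starchy endosperm (SD, n = 9). The aleurone libraries, at 182 to 298 CPM, lay inside the starchy endosperm's range of 138 to 295 CPM except at its upper end. This equality holds on the TMM scale only. As a share of feature counts, the plastid features other than matK were 0.0327 ± 0.00365% and 0.0174 ± 0.00502%, so they were 1.88 times as high in the aleurone. In such bulk samples fewer plastid-rich cells and less plastid RNA per cell cannot be told apart.

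**Figure D1:**
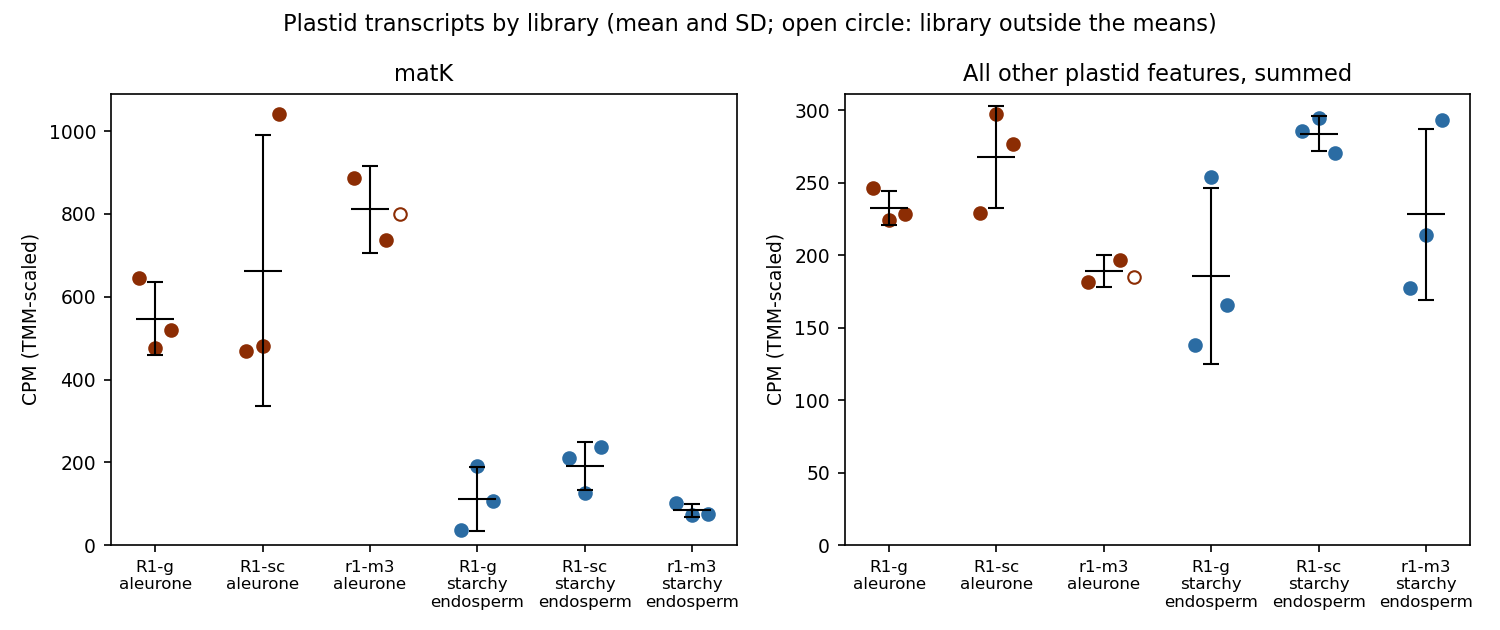
Level in CPM of matK (left) and of all other plastid features together (right) for each library, with mean and SD per group; open circles are r1-m3 aleurone replicate 3, which is outside the means. The aleurone libraries lie above all starchy endosperm libraries for matK, between 469 and 1040 CPM against 38.1 to 237 CPM, and overlap with them for the rest.

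The matK level was high in every aleurone library and lower in every starchy endosperm library. In the aleurone it was 646, 477 and 519 CPM in R1-g, 469, 480 and 1040 CPM in R1-sc, and 886 and 736 CPM in r1-m3, where the replicate left out gave 799 CPM. In the starchy endosperm it was 38.1, 192 and 108 CPM in R1-g, 211, 126 and 237 CPM in R1-sc, and 102, 74.3 and 76.4 CPM in r1-m3. The lowest aleurone library thus lay above the highest starchy endosperm library. The means were 657 ± 215 CPM (SD, n = 8) and 129 ± 68.4 CPM (SD, n = 9), a 5.08-fold difference, or 9.64-fold as a share of feature counts. Averaged over the genotypes, matK was higher in the aleurone by 2.45 on the log2 scale (SE 0.310, edgeR adjusted p = 8.02e-07).

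The difference passed the test in each genotype. R1-g gave a log2 fold change of 2.28 for matK (SE 0.524, edgeR adjusted p = 0.00569), R1-sc 1.80 (SE 0.515, adjusted p = 0.0255) and r1-m3 3.27 (SE 0.572, adjusted p = 0.000454). The R1-sc call is the least secure. It was lost when R1-sc aleurone replicate 3 or any of the 3 R1-sc starchy endosperm libraries was left out, with adjusted p of 0.0546 to 0.115. The compartment difference of matK did not itself pass a test between genotypes. The nearest was r1-m3 against R1-sc, with an interaction of 1.47 (SE 0.746, edgeR adjusted p = 0.616).

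The place of matK among the plastid transcripts moved in the same way. It made up 61.7% to 83.0% of plastid counts in the aleurone and 20.7% to 46.6% in the starchy endosperm, with means of 72.5 ± 7.24% (SD, n = 8) and 34.0 ± 9.77% (SD, n = 9). For each count on another plastid feature there were 1.61 to 4.88 matK counts in the aleurone and 0.261 to 0.873 in the starchy endosperm, so no library of either compartment reached the other's range. This ratio does not depend on the library scaling. When the whole table was rescaled to the plastid counts without matK, the log2 fold change of matK was 2.46. The gene lies in the intron of trnK, the lysine transfer RNA gene, and the sources used here do not say whether counting used strand, so matK reads cannot be told apart from unspliced trnK RNA.

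The feature trnK itself showed no such separation. It had a lowest, median and highest level of 9.69, 18.7 and 59.4 CPM in the aleurone and 4.48, 15.7 and 28.3 CPM in the starchy endosperm. The ranges overlapped. Its log2 fold change was 0.42 (SE 0.731, edgeR adjusted p = 0.758).

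Set per kilobase of annotated gene span, with introns, in the RefSeq annotation of Zm-B73-REFERENCE-NAM-5.0, matK was also the highest plastid feature. Its level was 426 CPM per kb in the aleurone and 83.9 CPM per kb in the starchy endosperm. The order of features holds for spans only. An intron in the span lowers the value, as for trnK, and levels per coding length were not computed. The next protein-coding feature was rps7 (ZemaCp100), which encodes a protein of the small ribosomal subunit. It reached 60.2 and 36.8 CPM per kb, so the gap was 7.07-fold in the aleurone and 2.28-fold in the starchy endosperm. This sets matK against 1 of 2 rps7 copies, which held 1729 (ZemaCp076) and 1789 (ZemaCp100) counts in the starchy endosperm. The gap to both rps7 copies together was therefore smaller. In the aleurone the second rps7 copy had 45.6 CPM per kb, rps19 (ZemaCp063) 32.7 and infA 21.9. In the starchy endosperm ndhA, at 27.3 CPM per kb, lay above rps19 (ZemaCp063), at 14.99. At the other end rpoB, a subunit of the plastid-encoded RNA polymerase, had 0.067 and 0.044 CPM per kb. Across the 64 members, mean levels in the 2 compartments had a Pearson correlation of 0.91 on log2(CPM + 1) and a Spearman correlation of 0.87, as a description over genes that share libraries and lengths.

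**Figure D2:**
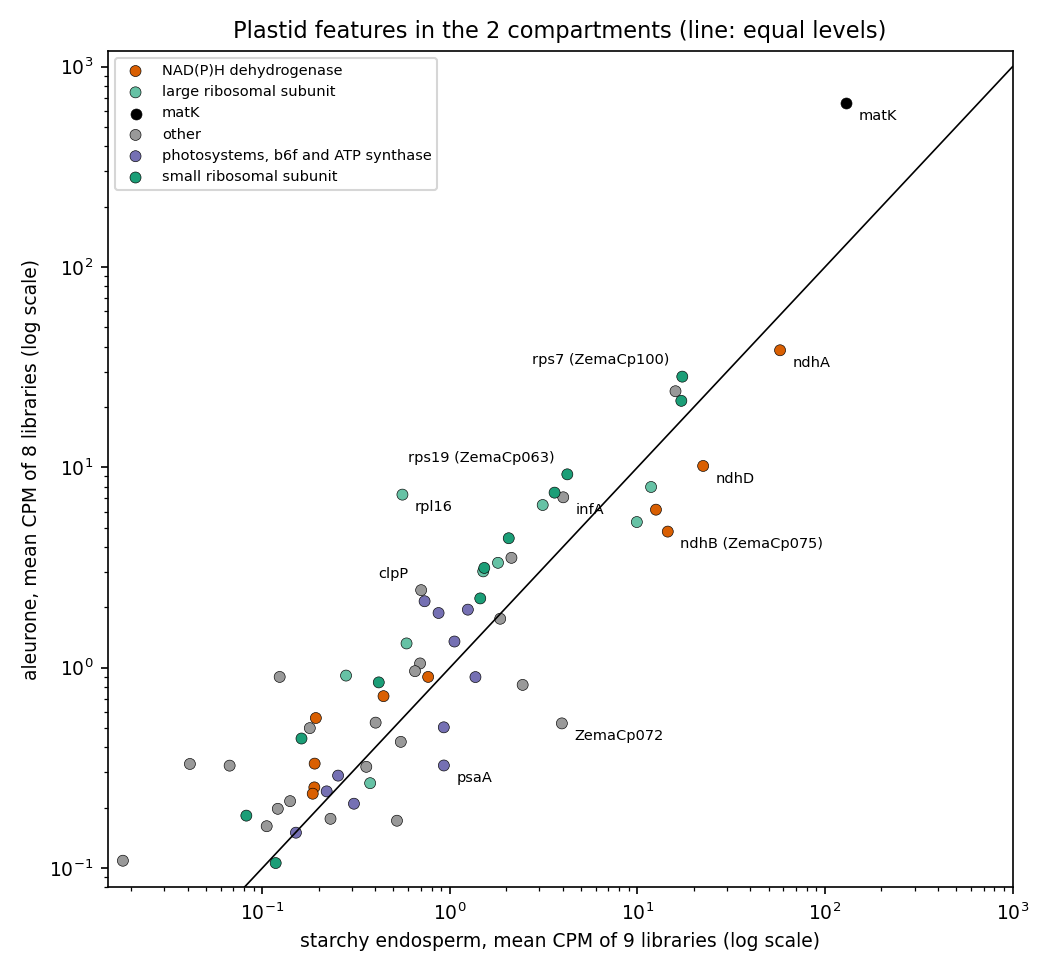
Mean level of the 64 plastid features in starchy endosperm (x axis, 9 libraries) and aleurone (y axis, 8 libraries) in CPM on log axes, coloured by class; the line marks equal levels. The matK point lies far above the line at 657 against 129 CPM, small ribosomal subunit genes lie mostly above it, and ndhA, ndhD and ndhB lie below it.

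Of the 64 members, 53 passed edgeR's filter on low counts and were tested. The other 11 (rpoA, rpoB, ndhI, ndhK, ndhH, psaB, rps3, rps15 (ZemaCp093), ZemaCp066, ZemaCp103 and ZemaCr113) held 27 to 114 counts each. Between compartments, averaged over genotypes, 2 members were higher in the aleurone, matK and rpl16, and 0 were lower, which is 3.77% of those tested. Of all 19111 features tested, 34.3% were called and 20.9% were called higher, so the members' share is below the background. At an unadjusted p under 0.05 there were 3 members. The members' median log2 fold change was 0.61 and that of all features 0.57, and 35 of the 53 were above 0, against 57.7% of all features. DESeq2 called 18 of 57 members with an adjusted p (31.6%), 14 higher and 4 lower in the aleurone, against 41.6% of all features called and 25.2% called higher. The 53 members had a median biological coefficient of variation of 1.35 of their own, while the trend that edgeR applied at their counts had a median of 2.10. DESeq2 gave matK a log2 fold change of 2.61 (adjusted p = 1.81e-12).

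Per genotype, edgeR called matK alone. Of all features, R1-g had 7.26% called, R1-sc 10.2% and r1-m3 4.6%. DESeq2 called 9 members (R1-g), 3 (R1-sc) and 2 (r1-m3), beside 23.7%, 30.2% and 18.6% of all features. R1-g had a median log2 fold change of 1.07 over the members, R1-sc 0.47 and r1-m3 0.20, beside 0.34, 0.55 and 0.54 for all features. The rule also admitted members through the aleurone alone: trnT (ZemaCt129), rpoA, ndhH, ZemaCr120, rpoB and ZemaCp103 reached 5 counts in no starchy endosperm library. In all, 20 members reached 5 counts in fewer than 3 starchy endosperm libraries, against 4 in fewer than 3 aleurone libraries. The 20 include rpl14, ndhF and trnT (ZemaCt129), which DESeq2 called higher in the aleurone over the genotypes.

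**Figure D3:**
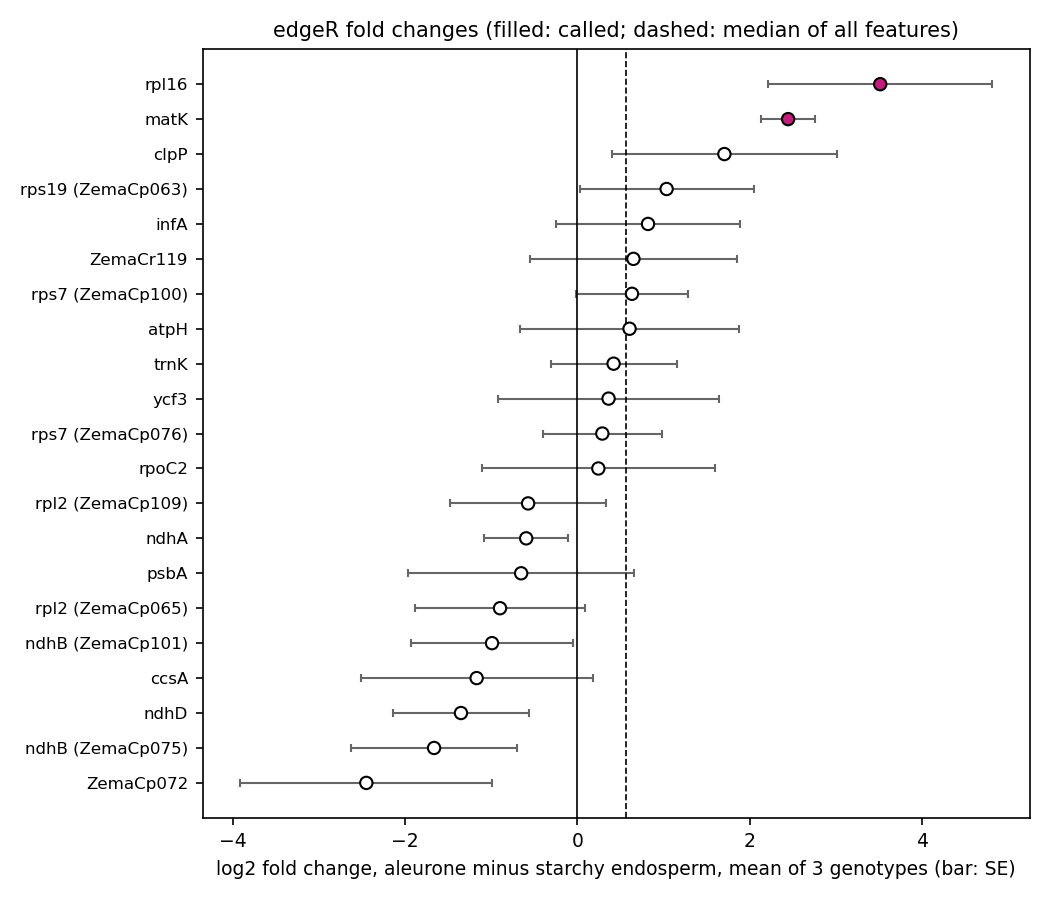
The edgeR log2 fold change between aleurone and starchy endosperm, averaged over genotypes, for 21 plastid features, with SE bars; filled points passed the adjusted p threshold of 0.05 and the dashed line is the median of all features (0.57). The call of matK at 2.45 has a short error bar, while rpl16 at 3.52 and most others have an SE near or above 1.

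Ribosomal protein genes of the small subunit took a larger share of the plastid counts outside matK in the aleurone. All 9 tested members of this class had a fold change above 0, as did 57.7% of all features, with a median of 0.94 beside 0.57, and 0 passed the edgeR test. DESeq2 called 5 of them, which included rps7 (ZemaCp100), rps18 and both copies of rps19, where it called 25.2% of all features higher. The class made up 29.4% to 35.3% of the plastid counts outside matK in the aleurone (mean 33.0 ± 2.10%, SD, n = 8). In the starchy endosperm it made up 12.7% to 25.2% (mean 20.4 ± 3.62%, SD, n = 9). The ranges did not overlap, and as shares within 1 library they do not depend on the scaling.

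The most abundant of these genes was rps7. Its copy ZemaCp100 had a lowest, median and highest level of 16.1, 30.0 and 37.9 CPM in the aleurone and 5.94, 17.3 and 26.7 CPM in the starchy endosperm. The ranges overlapped, since the r1-m3 aleurone libraries, at 16.1 and 19.7 CPM, lay within the starchy endosperm's range. The log2 fold change was 0.63 (SE 0.646, edgeR adjusted p = 0.510; DESeq2 0.79, adjusted p = 0.0173). The copy ZemaCp076 had 13.5, 19.8 and 38.2 CPM in the aleurone and 4.73, 16.9 and 24.8 CPM in the starchy endosperm. Its ranges overlapped more widely, with a log2 fold change of 0.29 (SE 0.694, edgeR adjusted p = 0.863).

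The small-subunit gene rps19 (ZemaCp063) ranged from 3.15 over a median of 8.60 to 15.5 CPM in the aleurone and from 2.18 over 4.52 to 5.36 CPM in the starchy endosperm. Of the aleurone libraries, R1-g replicate 3 alone lay below the highest starchy endosperm library. Its log2 fold change was 1.04 (SE 1.01, edgeR adjusted p = 0.487; DESeq2 1.19, adjusted p = 0.00114). The gene infA, whose product is a translation initiation factor, had lower levels, at 3.32, 6.60 and 10.9 CPM against 1.46, 3.52 and 7.64 CPM. Its ranges overlapped, and its log2 fold change was 0.82 (SE 1.07, edgeR adjusted p = 0.638; DESeq2 0.97, adjusted p = 0.0335).

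Large-subunit genes were mixed. Of 9 tested members, 6 had a fold change above 0 and 3 below, with a median of 0.77, and rpl16 was called. The class held 15.5 ± 2.82% of the plastid counts outside matK in the aleurone (SD, n = 8) and 13.1 ± 2.94% in the starchy endosperm (SD, n = 9), so its ranges overlapped.

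The rpl16 call rested on few libraries. Its aleurone levels were 1.95, 1.41 and 31.1 CPM in R1-g, 3.10, 1.95 and 2.30 CPM in R1-sc, and 13.9 and 2.73 CPM in r1-m3. In the starchy endosperm they were 0.516, 0.484 and 0.0947 CPM in R1-g, 0.861, 0.674 and 0.846 CPM in R1-sc, and 0.172, 0.654 and 0.723 CPM in r1-m3. All aleurone libraries lay above all starchy endosperm libraries, but R1-g replicate 3 and r1-m3 replicate 1 were far above the other 6. For rpl16 the log2 fold change was 3.52 (SE 1.30, edgeR adjusted p = 0.0363). The call was lost in 12 of the 17 fits that left out 1 library, with log2 fold changes of 2.59 to 3.77 and adjusted p up to 0.143. DESeq2 gave rpl16 no adjusted p and so did not call it.

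The rpl2 gene, which lies in the inverted repeat, was lower on average in the aleurone on the TMM scale. Copy ZemaCp109 had 3.62, 7.22 and 13.6 CPM (lowest, median, highest) in the aleurone and 4.73, 14.3 and 16.95 CPM in the starchy endosperm, with a log2 fold change of -0.57 (SE 0.906, edgeR adjusted p = 0.724). Copy ZemaCp065 had 1.76, 4.90 and 10.1 CPM and 5.34, 10.3 and 16.9 CPM, with a log2 fold change of -0.90 (SE 0.985, edgeR adjusted p = 0.552). Both pairs of ranges overlapped. With library totals in place of TMM factors the fold changes turned to 0.37 and 0.01, while the median of all features moved from 0.57 to 1.46.

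Genes of the NAD(P)H dehydrogenase complex, which takes part in cyclic electron flow around photosystem I in green tissue, held a larger share of the plastid counts outside matK in the starchy endosperm. That share was 47.4 ± 6.91% (SD, n = 9) against 26.9 ± 5.34% in the aleurone (SD, n = 8). The ranges met, at 33.7% to 57.1% and 19.4% to 34.6%. Of the 7 tested members 4 had a fold change below 0 and 3 above, with a median of -0.59, and 0 passed the edgeR test. The 4 below 0 were ndhA, ndhD and both copies of ndhB, which are also the 4 most abundant of the class. The 6 others (ndhE, ndhG, ndhF, ndhI, ndhK and ndhH) had mean levels under 1 CPM in either compartment. Of these, ndhI, ndhK and ndhH were not tested.

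**Figure D4:**
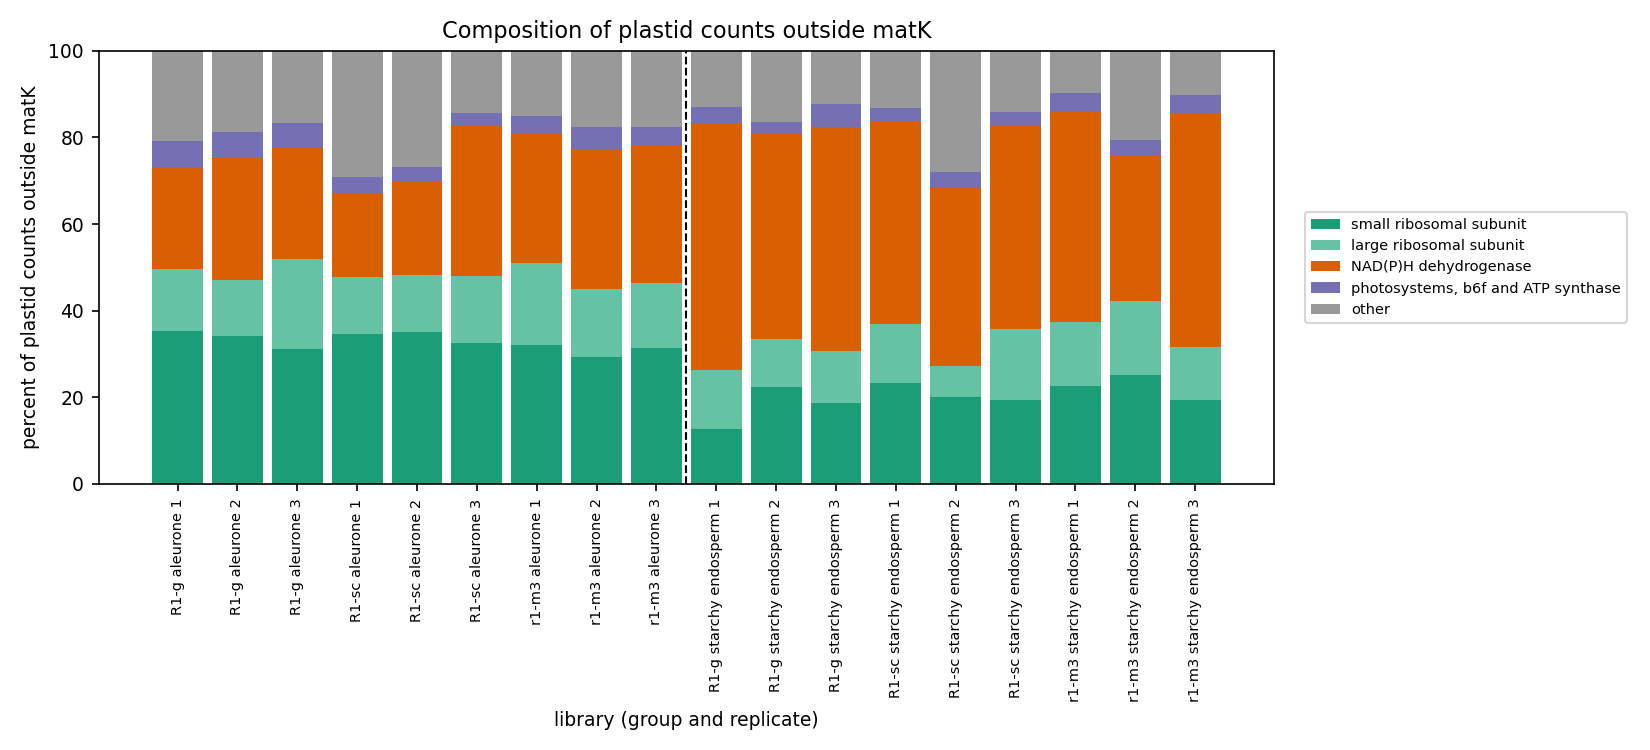
Percent of the plastid counts outside matK that fell to each class of genes in every library; the dashed line divides aleurone (left) from starchy endosperm (right). Small ribosomal subunit genes take 29.4% to 35.3% in the aleurone and 12.7% to 25.2% in the starchy endosperm, and NAD(P)H dehydrogenase genes take more of the starchy endosperm bars.

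The second most abundant plastid feature was ndhA. Its lowest, median and highest levels were 21.9, 32.5 and 85.5 CPM in the aleurone and 31.0, 49.6 and 102 CPM in the starchy endosperm. The ranges overlapped, with R1-sc aleurone replicate 3 among the high libraries. It had a log2 fold change of -0.59 (SE 0.489, edgeR adjusted p = 0.3903), and it turned to 0.33 with library totals in place of TMM factors.

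The ndhD level ran from 3.56 over a median of 5.70 to 22.0 CPM in the aleurone and from 10.3 over 19.2 to 50.4 CPM in the starchy endosperm. The aleurone libraries fell apart: R1-g replicates 1 and 3 and R1-sc replicate 2 had 16.97 to 22.0 CPM, and the other 5 had 3.56 to 7.54 CPM, below every starchy endosperm library. For ndhD the log2 fold change was -1.35 (SE 0.787, edgeR adjusted p = 0.197; DESeq2 -1.21, adjusted p = 0.0214).

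Copy ZemaCp075 of ndhB was the only tested member with all aleurone libraries below all starchy endosperm libraries in CPM, a pattern found in 4.4% of all features tested. Its levels were 1.20, 5.54 and 9.74 CPM in the aleurone and 9.77, 11.6 and 24.4 CPM in the starchy endosperm. The gap between the groups was thus small against their spread. As a share of feature counts the groups overlapped. R1-sc aleurone replicate 2 held 180 counts in 15.4 M, and R1-g starchy endosperm replicate 1 held 123 in 16.9 M. The log2 fold change was -1.66 (SE 0.963, edgeR adjusted p = 0.193; DESeq2 -1.52, adjusted p = 0.00390). The other copy, ZemaCp101, overlapped, at 1.36, 4.91 and 14.9 CPM against 8.35, 13.2 and 18.5 CPM, and had a log2 fold change of -0.99 (SE 0.944, edgeR adjusted p = 0.474). With library totals in place of TMM factors the fold changes were -0.77 for ZemaCp075 and -0.09 for ZemaCp101.

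The opposite pattern, all aleurone libraries above all starchy endosperm libraries in CPM, was seen in 3 tested members (5.66%), matK, rpl16 and clpP, and in 4.68% of all features tested. As a share of feature counts, without TMM factors, it was seen in 10 members (18.9%) and in 6.69% of all features. These included matK, rps7 (ZemaCp100), rps19 (ZemaCp112), rpl16, rps18, clpP, atpA, atpF and trnT (ZemaCt129), of which the last met the rule through the aleurone alone. Since the rule favours such members, the share is a description only.

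The gene clpP encodes a subunit of the plastid Clp protease. It had 1.41, 2.48 and 3.47 CPM in the aleurone and 0.0860, 0.766 and 1.38 CPM in the starchy endosperm. The ranges came close at 1.41 and 1.38 CPM but did not overlap. For clpP the log2 fold change was 1.71 (SE 1.31, edgeR adjusted p = 0.348; DESeq2 1.87, adjusted p = 0.00139).

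Photosystem and cytochrome b6f features held few counts in both compartments. Reads that aligned to several places went to no feature, and how far this lowered these counts was not tested. In all 18 libraries, 2 photosystem I and 5 photosystem II features had 0 counts. As classes, photosystem I summed to 2.002 CPM in the aleurone and 2.31 CPM in the starchy endosperm, photosystem II to 1.48 and 1.81 CPM, and cytochrome b6f to 0.735 and 1.18 CPM. Members were 3 of 7 photosystem I features (ycf3, psaA and psaB), 2 of 15 photosystem II features (psbA and psbC), 1 of 7 in the cytochrome b6f class (ccsA, which acts in cytochrome assembly) and 5 of 6 ATP synthase genes. The photosystem I features held 0.881% and 1.013% of the plastid counts outside matK in the aleurone and the starchy endosperm, and the photosystem II features 0.649% and 0.802%. The gene psbA, for the D1 protein of photosystem II, whose transcript is abundant in green leaves, had 0.234, 0.742 and 2.77 CPM in the aleurone and 0.323, 1.20 and 2.46 CPM in the starchy endosperm. These ranges overlapped almost wholly. Its log2 fold change was -0.65 (SE 1.31, edgeR adjusted p = 0.812) and turned to 0.29 with library totals in place of TMM factors.

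The photosystem I assembly gene ycf3 had 0.541, 1.43 and 1.76 CPM in the aleurone and 0.430, 1.21 and 1.52 CPM in the starchy endosperm. With a log2 fold change of 0.36 (SE 1.29, edgeR adjusted p = 0.951) its groups overlapped throughout. The ccsA level was 0.0801, 0.569 and 0.866 CPM against 0.189, 0.723 and 2.25 CPM, also overlapping, with a log2 fold change of -1.17 (SE 1.35, edgeR adjusted p = 0.577). For psaA, a core protein of photosystem I, means were 0.325 ± 0.369 CPM (SD, n = 8) and 0.929 ± 0.777 CPM (SD, n = 9), with a log2 fold change of -2.12 (SE 1.48, edgeR adjusted p = 0.293; DESeq2 -2.08, adjusted p = 0.0396).

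The ATP synthase genes were the best represented of the photosynthesis group, with a class level of 6.45 ± 2.47 CPM in the aleurone (SD, n = 8) and 3.39 ± 0.995 CPM in the starchy endosperm (SD, n = 9). Of 5 tested, 3 had a fold change above 0 and 0 passed the edgeR test. DESeq2 called atpA, for the alpha subunit (log2 fold change 1.52, adjusted p = 0.00114), which averaged 2.15 CPM in the aleurone and 0.733 CPM in the starchy endosperm. The gene with the highest mean over all 17 libraries was atpH, for a membrane ring subunit. It had 0.601, 1.82 and 3.25 CPM in the aleurone and 0.568, 1.12 and 2.20 CPM in the starchy endosperm. The groups overlapped, with a log2 fold change of 0.61 (SE 1.27, edgeR adjusted p = 0.824). Of the subunits of the plastid-encoded RNA polymerase, rpoC2 was the highest, at 0.318, 0.871 and 2.44 CPM against 0.191, 0.344 and 2.26 CPM. It too overlapped, with a log2 fold change of 0.24 (SE 1.35, edgeR adjusted p = 0.9998).

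Plastid rbcL, for the large subunit of Rubisco, was outside the rule with 24 counts in 18 libraries. Its plastid-derived copy in the mitochondrial genome, rbcL-ct, held 17897 counts. Such copies matter for other members too: rpl2-ct held 4372 counts beside 4981 on the plastid rpl2 copies, rpl23-ct 663 beside 1549, rps7-ct 263 beside 13266, rps19-ct 224 beside 4043, and ndhB-ct 21 beside 5068. Matched by symbol, 10 members have such a copy, and 11 protein-coding members share their symbol with a second plastid feature. The 10 are a minimum, since members without a symbol, such as the ribosomal RNA features, could not be matched. The mitochondrial rrn16-ct held 142 counts. Where near-identical copies share reads, the split between them is uncertain, since 42.2% to 55.0% of the reads in the tables aligned to several places and went to no feature. The rps7 copies held 5924 and 7342 counts, the ndhB copies 2444 and 2624, and the rps19 copies 2238 and 1805.

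The 4 ribosomal RNA members, also in the inverted repeat, carried 41 to 860 counts each over all libraries. The highest, ZemaCr119, had 1.76, 3.67 and 5.82 CPM in the aleurone and 0.818, 1.63 and 5.50 CPM in the starchy endosperm. Its groups overlapped, with a log2 fold change of 0.65 (SE 1.20, edgeR adjusted p = 0.779). Transfer RNA features were mostly not counted: 17 of 39 had 0 counts in all libraries and 5 were members.

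Among the 8 reading frames without a symbol, ZemaCp072 had the highest mean level, with a single library far above the rest. It had 26.1 CPM in R1-sc starchy endosperm replicate 2 and 0.282 to 3.98 CPM in the other starchy endosperm libraries. The aleurone ranged from 0 over a median of 0.524 to 1.18 CPM. The neighbouring frame in the annotation, ZemaCp071, was also highest in that same library, at 18.2 CPM, with 0.161 to 1.14 CPM in the other starchy endosperm libraries. For ZemaCp072 the log2 fold change was -2.45 (SE 1.46, edgeR adjusted p = 0.209; DESeq2 -2.39, adjusted p = 0.0203), and leaving out 1 library moved it between -3.24 and -1.13.

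**Figure D5:**
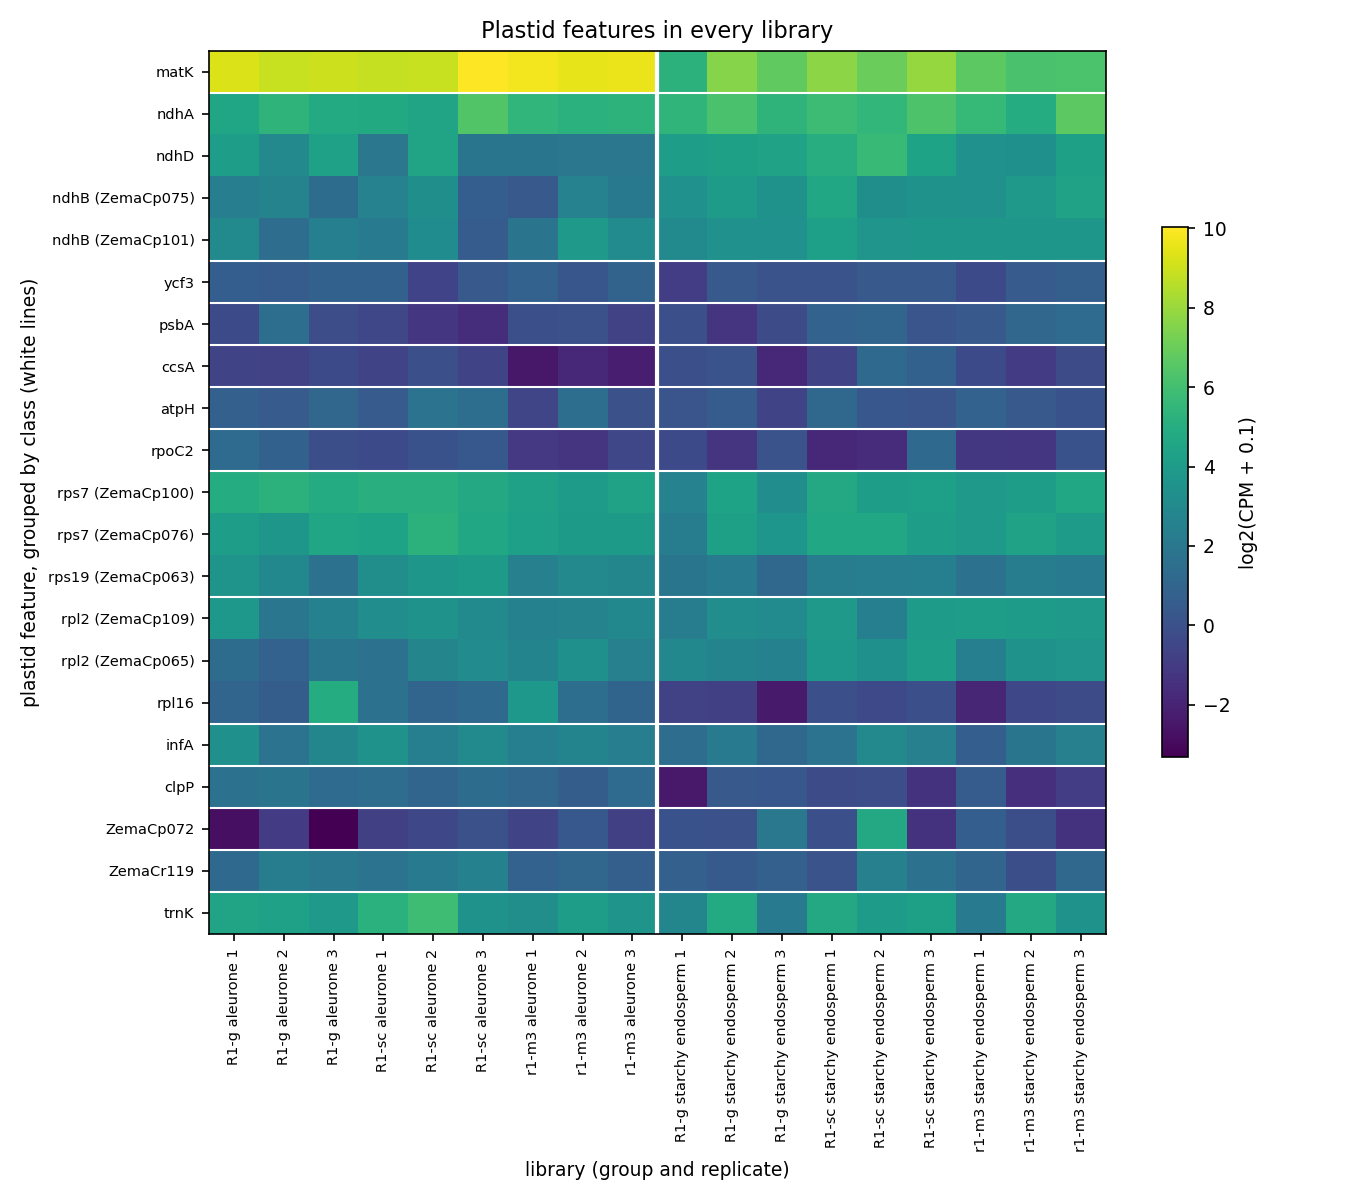
Level of the 21 plastid features described in full, in all 18 libraries, as log2(CPM + 0.1), with features in rows grouped by class and aleurone libraries to the left of the thick line. The matK row is the brightest in every aleurone library, and ZemaCp072 stands out in R1-sc starchy endosperm replicate 2 at 26.1 CPM.

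Levels per kb were uneven between neighbours along the genome. In the run of ribosomal genes from rpl14 to rpl23, part of a cluster that plants transcribe largely together, levels per kb in the aleurone were 2.46 CPM per kb for rpl14, 5.03 for rpl16 and 0.271 for rps3. They then rose to 14.5 for rpl22 and 32.7 for rps19 (ZemaCp063), before 3.59 for rpl2 (ZemaCp065) and 10.7 for rpl23 (ZemaCp067). The starchy endosperm had its lowest value of the run at rps3 as well, at 0.122 CPM per kb. The values of rps19, rpl2 and rpl23 are for 1 copy each of inverted repeat genes, so they depend on an uncertain split of reads. The rpl16 value was raised by R1-g aleurone replicate 3 (31.1 CPM) and r1-m3 aleurone replicate 1 (13.9 CPM). Spans include introns, so genes with an intron have lower values than their coding length would give. How much of the unevenness comes from this was not tested.

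Between genotypes no member passed the edgeR test. In the 6 comparisons of genotypes within a compartment, 0 of 318 tests on members were called and 2 had an unadjusted p under 0.05, with a lowest adjusted p of 0.372. In the aleurone the background was 0.283% of all features for R1-sc minus R1-g, 0.199% for r1-m3 minus R1-g and 0.0733% for r1-m3 minus R1-sc. The same comparisons had 0.0262%, 0.0209% and 0.0262% in the starchy endosperm, so few calls would be found in any set of this size. The 3 tests of whether the compartment difference varied with genotype gave 0 calls in 159 tests on members and 1 unadjusted p under 0.05, with a lowest adjusted p of 0.458, against backgrounds of 0.12%, 0.0785% and 0.00523%. DESeq2 called 1 member between genotypes, the ribosomal RNA feature ZemaCr114, and 0 in the interactions, beside 4.01% and 4.5% of all its tests in them.

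For matK the genotype means in the aleurone were 547 ± 87.9 CPM in R1-g (SD, n = 3), 663 ± 327 CPM in R1-sc (SD, n = 3) and 811 ± 106 CPM in r1-m3 (SD, n = 2). In the starchy endosperm they were 113 ± 77.2, 191 ± 58.1 and 84.2 ± 15.4 CPM (SD, n = 3 each), so the order of genotypes differed between compartments. Both r1-m3 aleurone libraries in the fit lay above all R1-g aleurone libraries, and all R1-sc starchy endosperm libraries lay above those of r1-m3, while the other pairs of genotypes overlapped. The aleurone difference was 0.57 on the log2 scale (SE 0.553, edgeR adjusted p = 0.950). The starchy endosperm difference was -1.18 on the log2 scale for r1-m3 minus R1-sc (SE 0.507, edgeR unadjusted p = 0.0271, adjusted p = 0.699). No member had a smaller adjusted p in that comparison. The share of all features whose libraries separate genotypes without overlap was not counted.

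The sum of the plastid features without matK was not tested between genotypes. It came to 233 ± 11.7 CPM in R1-g (SD, n = 3), 268 ± 35.1 CPM in R1-sc (SD, n = 3) and 189 ± 10.8 CPM in r1-m3 aleurone (SD, n = 2). In the starchy endosperm the sums were 186 ± 60.7, 284 ± 12.1 and 228 ± 59.2 CPM (SD, n = 3 each). On the TMM scale the r1-m3 aleurone libraries had the lowest sums of that compartment. As a share of feature counts the lowest was R1-g aleurone replicate 3 at 0.0282%, against 0.0305% and 0.0285% in r1-m3. The median log2 fold change of members in r1-m3 aleurone was -0.49 against R1-g and -0.50 against R1-sc, beside 0 for all features. For example, rps7 (ZemaCp100) had 32.6 ± 4.57 CPM in R1-g, 31.1 ± 4.10 CPM in R1-sc (SD, n = 3 each) and 17.9 ± 2.50 CPM in r1-m3 aleurone (SD, n = 2), with no overlap of r1-m3 with either, and it was not called. Its other copy, ZemaCp076, had 18.4 and 15.3 CPM in r1-m3 aleurone. These lay inside the R1-g range of 13.5 to 23.2 CPM and below the R1-sc range of 21.3 to 38.2 CPM. The share of all features with such a separation was not counted.

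The feature ZemaCr114 had 0 counts in all R1-g starchy endosperm libraries, 0.479, 1.91 and 1.32 CPM in R1-sc and 0.861, 0 and 0.362 CPM in r1-m3. In the aleurone it was present in every genotype, at 0.0886 to 0.456 CPM in R1-g. Its edgeR test between R1-sc and R1-g in the starchy endosperm gave an unadjusted p of 0.0248 and an adjusted p of 0.840. Both ZemaCr114 and ZemaCr119 span 2884 bases in the annotation and lie in the inverted repeat, so the split of reads between them is uncertain.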

How the data were processed

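The authors deposited 1 table of read counts per library, whole numbers without normalization, for 46430 features. Per the submitters' processing notes the build was B73 RefGen_v4 and the tools included HTSeq 0.11.2, HISAT2, Trimmomatic 0.39, SAMtools, FastQC and DESeq2; strand and multimapping settings are not given in the sources used here. HTSeq's rows of unassigned reads were left out of totals. Per the labels' protocols, the libraries started from 5 ng of RNA, amplified by Ovation RNA-Seq System V2; paired-end NEBNext libraries used about 400 ng of the cDNA. No molecular identifiers mark the amplified molecules, so counts are not independent molecules.

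Names and lengths came from RefSeq (Zm-B73-REFERENCE-NAM-5.0), in which all 157 plastid IDs matched. Its gene spans and gene order are used; its coordinates are not printed because the build differs. The test was edgeR 4.0.16 (R 4.3.3) on 17 libraries in 1 fit of 6 group means, with filterByExpr, TMM and robust quasi-likelihood F tests. P-values were adjusted by Benjamini and Hochberg over all 19111 features and called under 0.05. The SE is the size of the log2 fold change divided by the square root of F. Alternatives were DESeq2 1.42.0, limma 3.58.1 (voom), other scalings, no filter, a replicate block and leaving out each library.

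Named in full were the called members, the 12 with the highest mean CPM and the highest of each class; other genes named were chosen after their values were seen. The members and lists were chosen with earlier results of these data known. Scripts were tested on simulated data. Cell type markers could not be used, since no nuclear feature is paired with a name. Some members count in the totals and classes but are not reported here by name.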

Additional observations from a re-analysis of the deposited data

How the results depend on the processing

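The count of plastid features called between compartments, averaged over genotypes, was 2 in the test reported, 18 with DESeq2 (14 higher, 4 lower), 3 with library totals in place of TMM factors (with ZemaCr120), 3 with limma voom (with trnT (ZemaCt129)), 1 without a filter on low counts and 1 with the replicate number as a block; it stayed between 1 and 2 when each library was left out in turn. With DESeq2 the count was 9 in R1-g, 3 in R1-sc, 2 in r1-m3 and 1 over the genotype comparisons, against 1, 1, 1 and 0; DESeq2 called 23.7%, 30.2%, 18.6% and 4.01% of all features in them. In R1-sc it was 0 with only the R1-sc libraries and 0 to 1 when each library was left out. The log2 fold change of matK over the genotypes ranged from 2.29 to 2.66 without each library. With library totals in place of TMM factors the fold change turned to 0.33 for ndhA, 0.37 for rpl2 (ZemaCp109), 0.0113 for rpl2 (ZemaCp065) and 0.29 for psbA, and matK in the aleurone stood at 605 CPM per kb. With all reads of the tables as the denominator, plastid features took 0.0359% (aleurone) and 0.00753% (starchy endosperm), and without matK 0.0327% and 0.0174% of feature counts. Limma voom and the 2 choices that set matK aside were added after seeing the data. The cause of these changes was not tested. Same-numbered libraries of the compartments had correlations of -0.0019 to 0.0228 in their deviations from the group means. With groups of 2 or 3 libraries, these values cannot show whether same-numbered libraries came from the same kernels. The replicate block uses the shared number only. Members at a few counts are limited by depth.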
